A study of Mus musculus with 2 samples.

Results

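Enteroendocrine cells are scattered hormone-secreting cells of the gut epithelium, and 10 genes that mark them were followed here, chosen by name out of 35529 in the table. They were the peptide hormone genes Gcg, Pyy, Insl5, Sst, Sct, Cck and Nts, the granins Chga and Chgb, and Tph1, the enzyme that commits tryptophan to serotonin. All 10 were in the table, and 9 reached 1 RPKM (reads scaled to transcript length and library size) in at least 1 library, the exception being Cck. The mice were C57BL/6 wild types. The AOM+DSS group was adenoma tissue of the colon from animals treated with azoxymethane, a carcinogen, and dextran sodium sulfate, which damages the colonic lining. The control group was normal colon of mice that received neither agent. Neither ages nor treatment times appear in the labels. RNA of 6 individuals was pooled for each group and sequenced as 1 library, so differences have no replicate check and the groups could not be compared by a test. Intervals beside fold changes are 95% counting intervals from approximate reads and cover counting error only.

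These cells arise from secretory progenitors of the crypt and store their products in dense-core granules, which granin proteins help to form. Hormones are made as precursors that convertases cut inside the granule. In the colon, L cells release glucagon-like peptides, peptide YY and insulin-like peptide 5, enterochromaffin cells release serotonin, and D cells release somatostatin. In bulk tissue, fewer cells of a type and less RNA per cell cannot be told apart.

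The libraries held 33174626 reads (AOM+DSS) and 29548883 reads (control) behind the RPKM values. All 7 absorptive colonocyte markers were above 0 in both libraries. Their most abundant in control tissue, the carbonic anhydrase Car4, had 18.4 RPKM in AOM+DSS and 659 RPKM in control tissue, while the epithelial keratin Krt8 had 2514 RPKM in AOM+DSS and 4237 RPKM in control tissue. Over all genes, short transcripts read higher and long transcripts lower in the AOM+DSS library. The median log2 difference was 0.79 for the shortest 10% of mRNA genes and -0.76 for the longest 10%, so values adjusted for length are given beside the results.

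On the scale log2((AOM+DSS RPKM + 1)/(control RPKM + 1)), 5 of the 10 genes were at least 2-fold lower in adenoma tissue, namely Chgb, Chga, Tph1, Sst and Gcg, and Nts was at least 2-fold higher. Among all 16517 genes that reached 1 RPKM in a library, 11.0% were at least 2-fold lower and 14.0% at least 2-fold higher. Pyy, Insl5, Sct and Cck lay between these limits. The 9 genes past the filter had a median log2 difference of -1.17, against -0.02 over all 16517 genes. Nts passed the filter only through the AOM+DSS library. From high to low RPKM the order was Insl5, Pyy, Gcg, Chgb, Chga, Sct, Sst, Nts, Tph1 and Cck in AOM+DSS, and Insl5, Pyy, Chgb, Gcg, Chga, Sst, Tph1, Sct, Cck and Nts in control tissue, with no spread between samples to set neighbours apart. Summed over the 10 genes, the level was 252 RPKM in AOM+DSS and 463 RPKM in control tissue.

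**Figure D1:**
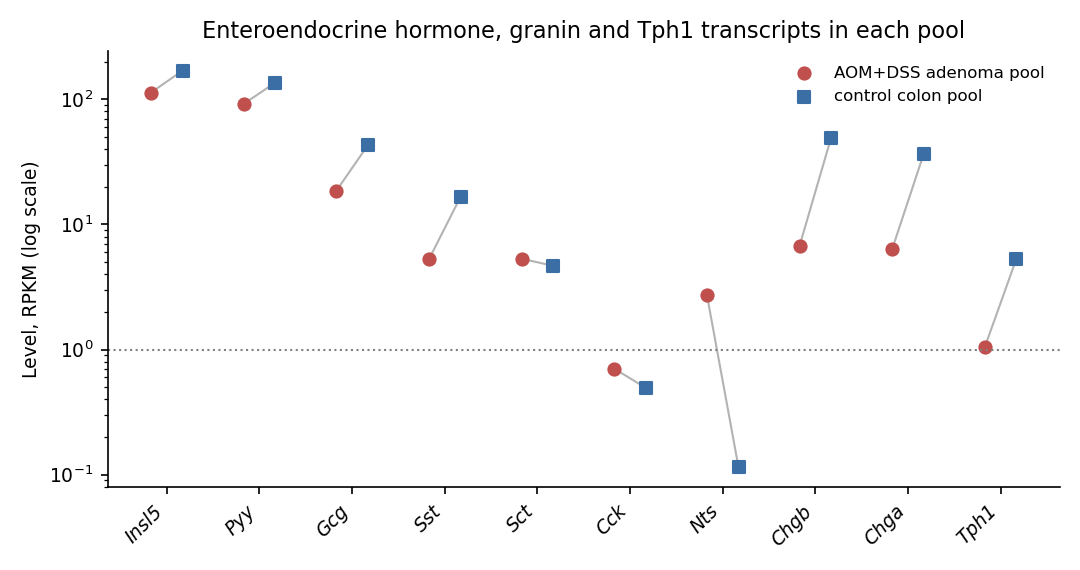
RPKM of each gene on a log axis in the AOM+DSS adenoma pool (circles) and the control colon pool (squares), 1 library each, with a dotted line at 1 RPKM. The granins Chgb and Chga stand near 7 and 6 RPKM in the adenoma pool, far under their control values, while Insl5 and Pyy stay near 100 RPKM or above in both pools and Nts is the gene with the widest gap in the other direction.

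Insl5 and Pyy, both L cell hormones, were the most abundant of the 10 genes in both libraries. Insl5, a relaxin-family peptide of colonic L cells, had 113 RPKM in AOM+DSS and 169.8 RPKM in control tissue, 1.498-fold lower (1.42 to 1.58). Pyy, which encodes the appetite-restraining peptide YY, had 92.0 RPKM in AOM+DSS and 136 RPKM in control tissue, 1.48-fold lower (1.39 to 1.58). Both genes were thus lower by nearly the same factor, and the ratio of Insl5 to Pyy was 1.23 in AOM+DSS and 1.25 in control tissue. Gcg, whose product proglucagon is cut into the glucagon-like peptides, had 18.6 RPKM in AOM+DSS and 43.0 RPKM in control tissue, 2.31-fold lower (2.10 to 2.54). Its interval lies above those of Insl5 and Pyy, and the ratio of Pyy to Gcg was 4.94 in AOM+DSS against 3.17 in control tissue. Together Insl5, Pyy and Gcg made up 88.8% of the summed RPKM of the 10 genes in AOM+DSS and 75.4% in control tissue.

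Sst, which encodes somatostatin, an inhibitor of other endocrine cells, had 5.28 RPKM in AOM+DSS and 16.6 RPKM in control tissue, 3.14-fold lower (2.57 to 3.90). Sst is also transcribed in enteric neurons, and the level of their markers is given further on.

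The remaining hormones, known chiefly from the small intestine, were low in both libraries. Sct, encoding secretin, which stimulates bicarbonate secretion, had 5.32 RPKM in AOM+DSS and 4.67 RPKM in control tissue. Its ratio of 1.14 had an interval of 0.852 to 1.54, so a difference was not detectable at this depth. Cck, encoding cholecystokinin, which acts on gallbladder and pancreas, had 0.703 RPKM in AOM+DSS and 0.493 RPKM in control tissue, with a ratio of 1.43 (0.650 to 3.19), again no difference detectable at this depth. Nts, encoding neurotensin, had 2.71 RPKM in AOM+DSS and 0.115 RPKM in control tissue, 23.6-fold higher (9.47 to 93.1). The control value of Nts corresponds to only about 4 reads, which is why this interval is wide. In control tissue Nts was near the floor, where 3 reads would give 0.0814 RPKM.

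The granins showed the greatest deficits of the 10 genes, though the interval of Chga overlapped that of Tph1 (4.25 to 6.03). Chgb, encoding chromogranin B, had 6.79 RPKM in AOM+DSS and 49.5 RPKM in control tissue, 7.30-fold lower (6.70 to 7.96). Chga, encoding chromogranin A, the general marker of endocrine granules, had 6.41 RPKM in AOM+DSS and 36.9 RPKM in control tissue, 5.76-fold lower (5.17 to 6.43). Chga and Chgb together made up 5.23% of the summed RPKM of the 10 genes in AOM+DSS and 18.7% in control tissue. Relative to Chga, Pyy was 14.4-fold as abundant in AOM+DSS and 3.69-fold as abundant in control tissue, so hormone and granin transcripts of the same lineage were not lower in proportion. Because these ratios are taken within a library they do not depend on how the libraries are scaled, though they do include the trend with transcript length, Chga and Chgb being longer than Pyy.

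The promoters of Chga, Chgb and Sst are textbook examples of promoters with a cyclic AMP response element, whose full form is TGACGTCA and whose core is TGACG. The 250 bases before each RefSeq transcription start (GRCm38.p6) were therefore searched for both on either strand, a search chosen after the values were seen. All 10 genes matched the promoter table, Pyy, Insl5 and Tph1 with more than 1 listed start. TGACGTCA was present before Chgb and Sst, and occurs in 1.55% of all 32851 windows. TGACG was present before 6 genes, Chga, Chgb, Sst, Tph1, Cck and Nts, and occurs in 17.8% of all windows. Each TGACGTCA contains TGACG on both strands. Of the 5 genes at least 2-fold lower, Gcg had no TGACG in this window. The E-box CAGNTG, the kind of motif that basic helix-loop-helix factors such as Neurod1 bind, was searched in the same way. It was present before 7 genes, Chga, Chgb, Gcg, Insl5, Sct, Cck and Nts, and occurs in 44.8% of all windows. The matches are descriptions of letters in these windows and were not tested as binding sites. The stretches of 30 bases below are shown because they let the 4 granin, somatostatin and Tph1 sites be compared with that of Nts, which was higher in adenoma tissue. Cck is not shown. Its match starts from position -47, as near the start as those of the lower genes, and no difference in its level was detectable. Tph1 is shown from the start listed first. Capitals mark the match, on the gene's own strand, with CGTCA being TGACG read on the other strand.
Chgb, chr2:132781559-132781588, plus strand, match from position -72: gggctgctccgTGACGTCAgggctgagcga
Sst, chr16:23890874-23890903, minus strand, match from position -48: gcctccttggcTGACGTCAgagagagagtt
Chga, chr12:102554885-102554914, plus strand, match from position -44: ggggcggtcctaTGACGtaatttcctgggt
Tph1, chr7:46672556-46672585, minus strand, match from position -36: aaaatgtgcgtgTGACGctgcgtgtgctag
Nts, chr10:102490567-102490596, minus strand, match from position -166: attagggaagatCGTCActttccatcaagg

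Positions count back from the RefSeq start. The Chgb and Sst stretches lie inside an exon of the same gene in the GENCODE M21 annotation of GRCm38, whose starts lie further upstream, and the others lie outside its exons. In that annotation Gcg is on chromosome 2 (62474530 to 62483650), Pyy on 11 (102106676 to 102107832), Insl5 on 4 (103017872 to 103026842), and Sct on 7 (141278330 to 141279133). No other annotated gene overlaps any of the 10 genes on either strand.

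Tph1, the rate-limiting enzyme of serotonin synthesis in enterochromaffin cells, had 1.06 RPKM in AOM+DSS and 5.34 RPKM in control tissue, 5.06-fold lower (4.25 to 6.03). Mast cells can also transcribe Tph1, and most of their markers lay in the other direction. Of 11 mast cell markers, 10 had higher RPKM in AOM+DSS, while 51.2% of all genes above 0 in either library were lower. The summed level was 110 RPKM in AOM+DSS and 15.96 RPKM in control tissue, and Tpsab1 was listed at 0 in the control library. Of the 9 past the filter, 6 were at least 2-fold higher and 1 lower, against 14.0% and 11.0% of all genes. The higher ones included the proteases Mcpt2, with 42.8 RPKM in AOM+DSS and 1.39 RPKM in control tissue, and Mcpt1, with 36.9 RPKM in AOM+DSS and 1.96 RPKM in control tissue. The lower one was Kit, with 1.15 RPKM in AOM+DSS and 6.99 RPKM in control tissue, 6.09-fold lower (5.22 to 7.11). The part of mast cells in the Tph1 level was not tested.

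The other genes of serotonin handling did not share a direction. Of the 11 measured, 9 passed the filter, 3 of them at least 2-fold lower and 2 at least 2-fold higher, against 11.0% and 14.0% of all genes, with a median of -0.06. There were 3 lower and 3 higher after length adjustment (median -0.66), 4 lower and 2 higher at equal sums (median -0.44), and 2 lower and 4 higher on the epithelial scale (median 0.45). Maob, which degrades amines, had 3.04 RPKM in AOM+DSS and 18.7 RPKM in control tissue, 6.14-fold lower (5.35 to 7.07). The serotonin reuptake transporter Slc6a4 had 2.33 RPKM in AOM+DSS and 9.90 RPKM in control tissue, 4.26-fold lower (3.66 to 4.96), and Maoa, which breaks serotonin down, had 37.4 RPKM in AOM+DSS and 93.6 RPKM in control tissue. Slc18a1, the vesicular monoamine transporter that loads serotonin into granules, went the opposite way to Tph1 and passed the filter only through AOM+DSS, with 8.14 RPKM in AOM+DSS and 0.651 RPKM in control tissue, 12.5-fold higher (9.60 to 16.5). The ratio of Slc18a1 to Tph1 was 7.71 in AOM+DSS and 0.122 in control tissue. Pts, an enzyme for the tetrahydrobiopterin cofactor that Tph1 uses, had 58.4 RPKM in AOM+DSS and 21.6 RPKM in control tissue. Ddc, which converts the Tph1 product to serotonin, had 23.8 RPKM in AOM+DSS and 38.4 RPKM in control tissue, and the neuronal isoenzyme gene Tph2 had 0.207 RPKM in AOM+DSS and was listed at 0 in control tissue.

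How far the hormones were lower depended on the scale. Chgb, Chga, Sst and Tph1 stayed at least 2-fold lower as deposited, with both libraries set to equal RPKM sums, after length adjustment, and when scaled to 8 pan-epithelial markers. Gcg was at -1.17 as deposited, -1.54 at equal sums, -1.95 after length adjustment and -0.67 relative to the epithelial markers. Pyy was at -0.56 as deposited and -0.95 at equal sums, and Insl5 was at -0.58 and -0.97 on the same scales. After length adjustment Pyy was at -1.55 and Insl5 at -1.53, both then past 2-fold, whereas relative to the epithelial markers they were at -0.05 and -0.06. Sct was at 0.16 as deposited, -0.17 at equal sums, -0.82 after length adjustment and 0.60 on the epithelial scale, so its sign was set by the scale. Nts stayed at least 2-fold higher on these 4 scales, from 1.06 after length adjustment to 2.13 on the epithelial scale. The scale also moved the background, with 1809 genes lower and 2316 higher as deposited. At equal sums 3158 genes (19.1%) were lower and 1208 (7.31%) higher, and after length adjustment 1745 (11.3%) were lower and 879 (5.67%) higher. On the epithelial scale 766 (4.64%) were lower and 4468 (27.1%) higher. The median of all genes was -0.34 at equal sums, -0.19 after length adjustment and 0.42 on the epithelial scale.

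**Figure D2:**
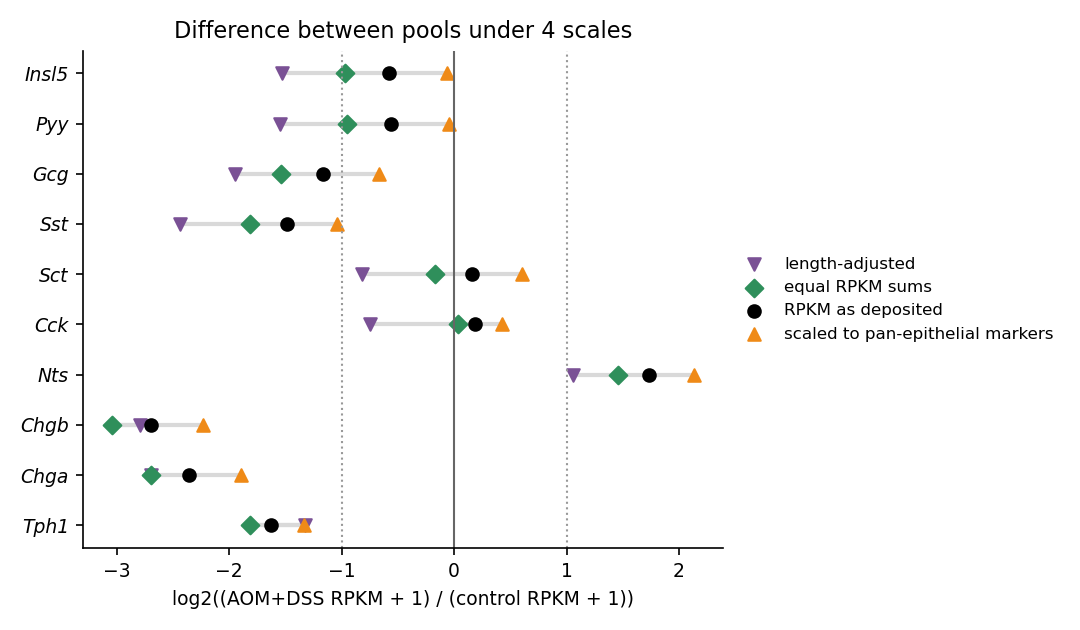
Difference between the AOM+DSS and control pools on the log2(RPKM + 1) scale for each gene under 4 scales, with dotted lines at 2-fold in each direction. Chgb, Chga, Sst and Tph1 lie left of the lower line on all 4 scales, Gcg on 3 of them, and Pyy and Insl5 range from near 0 on the epithelial scale to about -1.5 after length adjustment.

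Transcript length bears on these differences because the hormone messages are short. The median over mRNA genes of the same length was 0.81 at that of Pyy, 0.78 at that of Insl5, 0.78 at that of Sst and 0.61 at that of Gcg. At the lengths of Chga, Chgb and Tph1 it was 0.16, -0.08 and -0.47. Across 12733 mRNA genes, Spearman's rho between length and difference was -0.50, and across the 9 genes past the filter it was -0.67, both as descriptions, since genes of 1 pair of libraries are not independent. Relative to genes of their own length, Pyy, Insl5 and Sst therefore lay further down than their RPKM values alone show, and the order of the granins below the L cell hormones was kept after adjustment, with Chgb at -2.79 and Chga at -2.69 against -1.95 for Gcg.

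**Figure D3:**
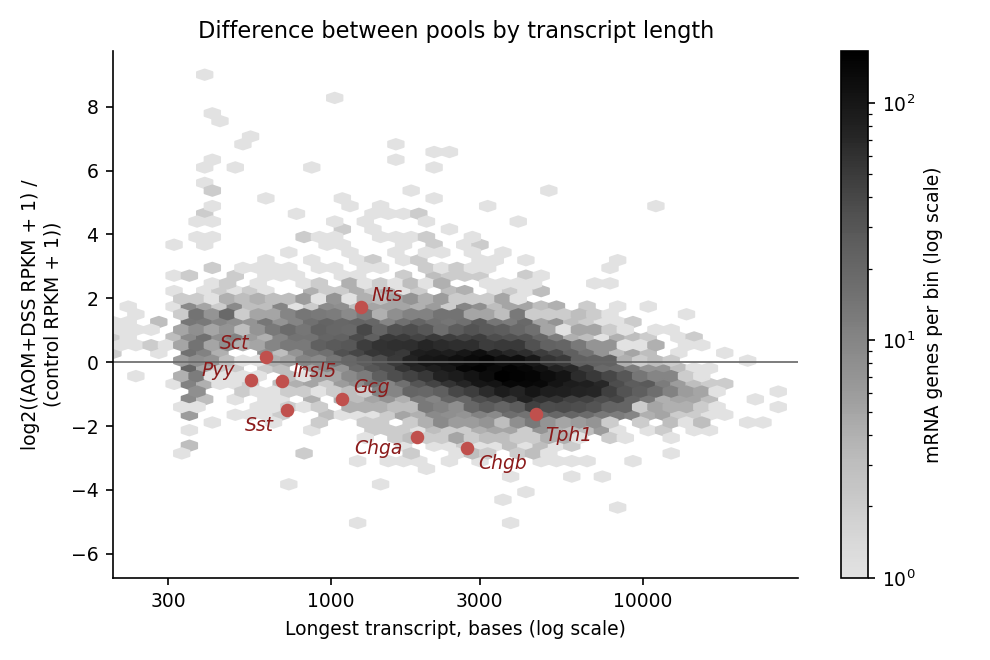
Difference between the AOM+DSS and control pools on the log2(RPKM + 1) scale against the longest annotated transcript, with mRNA genes as grey bins and the 9 genes past the filter as labelled points. All points except Nts lie under the middle of the grey cloud at their length, and the cloud falls from left to right with a rho of -0.50.

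Most genes that process and store the hormones had lower values too. Of 15 such genes, 14 had lower RPKM in AOM+DSS, against 51.2% of all genes above 0 in either library. On the log2(RPKM + 1) scale, 4 of the 12 that passed the filter were at least 2-fold lower, 0 were higher and 8 lay between, with a median of -0.74. Among all genes past the filter, 11.0% were lower and 14.0% higher. The added 1 shrinks differences at low RPKM. With 0.1 added in its place, 6 were lower and 1 higher, against 17.3% and 18.2% of all genes. After length adjustment there were 7 lower and 1 higher (median -1.15), against 11.3% and 5.67% of all genes. On the epithelial scale there were 2 lower and 1 higher (median -0.42), against 4.64% and 27.1%. Pcsk1, Scg3 and Ptprn passed the filter only through control tissue and Cadps only through AOM+DSS. Ptprn2, a granule membrane protein, had 1.16 RPKM in AOM+DSS and 7.28 RPKM in control tissue, 6.29-fold lower (5.31 to 7.48). Scg2, encoding secretogranin II, had 1.58 RPKM in AOM+DSS and 7.56 RPKM in control tissue, 4.79-fold lower (3.95 to 5.82). Cpe, the carboxypeptidase that trims cut peptides, had 13.5 RPKM in AOM+DSS and 32.4 RPKM in control tissue. The convertases were low in both libraries, with Pcsk1 at 0.821 RPKM in AOM+DSS and 1.52 RPKM in control tissue and Pcsk2 at 0.197 RPKM in AOM+DSS and 0.760 RPKM in control tissue. Cadps, which primes granules for release, was the exception in direction, at 1.80 RPKM in AOM+DSS and 0.537 RPKM in control tissue.

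Most transcription factors of the lineage were scarce, and 15 of 17 had lower values in adenoma tissue. The 15 included each of the 11 that stayed under 1 RPKM in both libraries. Among all genes above 0 and under 1 RPKM in both libraries, 51.8% were lower. Neurog3, the factor that commits progenitors to the endocrine fate, had 0.431 RPKM in AOM+DSS and 1.47 RPKM in control tissue, 3.42-fold lower (2.09 to 5.81). Neurod1, which acts after Neurog3, had 0.0846 RPKM in AOM+DSS and 0.651 RPKM in control tissue, 7.70-fold lower (3.51 to 18.1). Insm1, a transcriptional repressor made in endocrine progenitors, had 0.120 RPKM in AOM+DSS and 0.851 RPKM in control tissue, 7.11-fold lower (3.95 to 14.7). Rfx6 had 0.0174 RPKM in AOM+DSS and 0.294 RPKM in control tissue, and Lmx1a, a factor of enterochromaffin cells, had 0.0361 RPKM in AOM+DSS and 0.436 RPKM in control tissue, but both rested on under 5 reads in the AOM+DSS library. Fev, also an enterochromaffin factor, had 0.143 RPKM in AOM+DSS and 0.778 RPKM in control tissue. Atoh1, needed for all secretory cells, had 3.76 RPKM in AOM+DSS and 18.6 RPKM in control tissue, 4.93-fold lower (4.31 to 5.66).

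Of the better expressed factors, Foxa1, which has wide roles in gut epithelium, had 8.02 RPKM in AOM+DSS and 13.5 RPKM in control tissue, and its relative Foxa2 had 5.90 RPKM in AOM+DSS and 10.3 RPKM in control tissue. The 2 factors that were higher are not restricted to endocrine cells. Sox4, a factor of progenitors and of many tumours, had 24.0 RPKM in AOM+DSS and 6.00 RPKM in control tissue, 3.99-fold higher (3.71 to 4.31). Isl1 had 3.09 RPKM in AOM+DSS and 0.884 RPKM in control tissue, 3.50-fold higher (2.65 to 4.64), and it is also made in neurons. The filter was passed by 6 factors, Isl1 only through AOM+DSS and Neurog3 only through control tissue. Of these 1 was at least 2-fold lower and 2 higher, against 11.0% and 14.0% of all genes. Neurog3 was at -0.79 on the log2(RPKM + 1) scale. With 0.1 added in place of 1, 2 were lower and 2 higher (17.3% and 18.2% of all genes). The epithelial scale gave 1 lower and 2 higher (4.64% and 27.1%). Equal sums gave 3 lower and 1 higher (19.1% and 7.31%). Length adjustment gave 2 lower and 1 higher (11.3% and 5.67%), with Isl1 at 0.996. So few genes give no settled direction.

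**Figure D4:**
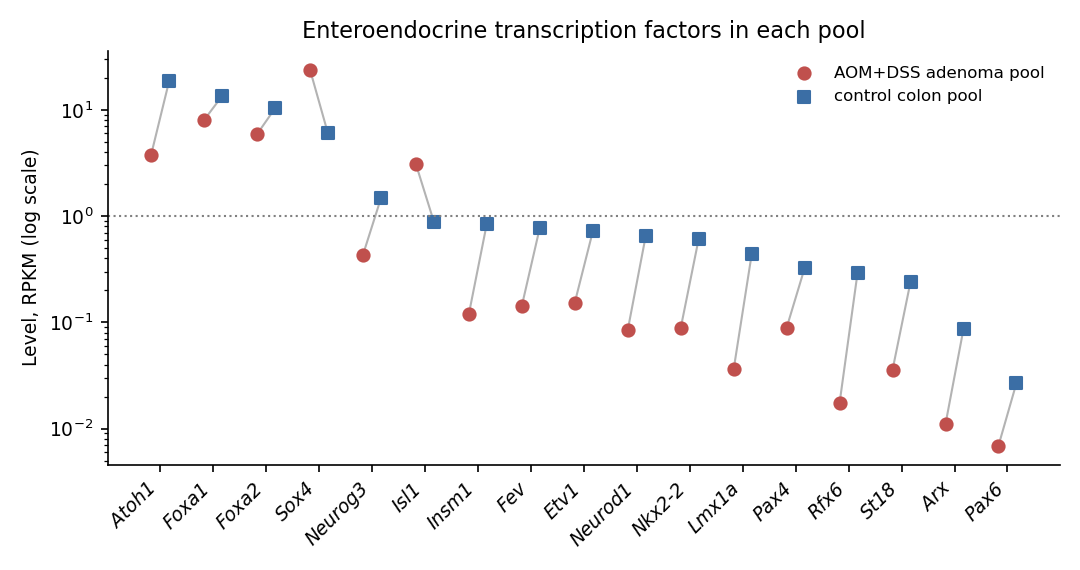
RPKM of 17 transcription factors of the enteroendocrine lineage on a log axis, in the AOM+DSS adenoma pool (circles) and the control colon pool (squares), ordered by control level, with a dotted line at 1 RPKM. The circle is under the square for 15 factors and above it for Sox4 and Isl1.

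Other enteroendocrine peptide genes gave no common direction. Tac1, encoding substance P, which both enterochromaffin cells and enteric neurons make, had 17.7 RPKM in AOM+DSS and 9.39 RPKM in control tissue, 1.89-fold higher (1.70 to 2.09), while Tph1 and Chga of the same endocrine cells were lower. Ppy, encoding pancreatic polypeptide, had 7.25 RPKM in AOM+DSS and 14.5 RPKM in control tissue, 2.002-fold lower (1.60 to 2.54). Ghrl had 1.03 RPKM in AOM+DSS and 0.706 RPKM in control tissue, and Iapp had 0.563 RPKM in AOM+DSS and 0.0486 RPKM in control tissue, where it rested on about 1 read. Ucn3 was listed at 0 in AOM+DSS and stood at 0.160 RPKM in control tissue, Gip was listed at 0 in AOM+DSS and stood at 0.0521 RPKM in control tissue, and Gast was listed at 0 in both.

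Neurons of the gut wall share granins and several of these peptides with endocrine cells, so their markers were set beside them. Of 13 enteric neuron markers, 12 had lower RPKM in AOM+DSS, against 51.2% of all genes above 0 in either library. Their summed level was 40.9 RPKM in AOM+DSS and 61.3 RPKM in control tissue, with none at 0. Of the 9 past the filter, 1 (11.1%) was at least 2-fold lower and 0 higher, with a median of -0.53. The share lower was that of all genes past the filter (11.0%), and after length adjustment 0 of the 9 were lower. Vip, the most abundant, had 16.3 RPKM in AOM+DSS and 24.0 RPKM in control tissue, and Snap25, which endocrine cells also use for release, had 0.645 RPKM in AOM+DSS and 3.10 RPKM in control tissue. Nos1 had 0.220 RPKM in AOM+DSS and 1.43 RPKM in control tissue, 6.49-fold lower (5.05 to 8.41). On the log2(RPKM + 1) scale Nos1 was at -0.99, and at -0.38 after length adjustment. All 4 markers under the filter had lower RPKM in AOM+DSS. With 0.1 added in place of 1, 2 of the 9 were lower, against 17.3% of all genes. The 5 markers of enteric glia summed to 2.64 RPKM in AOM+DSS and 5.06 RPKM in control tissue, with S100b, the most abundant, at 0.871 RPKM in AOM+DSS and 1.51 RPKM in control tissue. The part of these cells in the granin and Sst levels was not tested.

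The epithelium as a whole also differed. The 8 pan-epithelial markers summed to 6410 RPKM in AOM+DSS and 9644 RPKM in control tissue, of which 2 were lower and 0 higher by 2-fold, and their median was -0.49. For the counts in this paragraph, 11.0% of all genes past the filter were lower and 14.0% higher by 2-fold. Of 7 absorptive colonocyte markers, 7 were at least 2-fold lower, with a median of -3.59, and of 7 goblet cell markers 5 were lower, with a median of -1.78 and the abundant lectin Zg16 at 325 RPKM in AOM+DSS and 4487 RPKM in control tissue. The median of -1.17 for the enteroendocrine genes lay between the pan-epithelial and the goblet values, a comparison of descriptions that was not tested. Smooth muscle markers summed to 1769 RPKM in AOM+DSS and 2127 RPKM in control tissue, with 1 of 6 at least 2-fold lower and Tagln, the most abundant, at 597 RPKM in AOM+DSS and 558 RPKM in control tissue. The 7 leukocyte and fibroblast markers summed to 773 RPKM in AOM+DSS and 507 RPKM in control tissue, mostly from Lyz2 at 621 RPKM in AOM+DSS and 328 RPKM in control tissue, and 0 of them passed 2-fold in either direction.

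**Figure D5:**
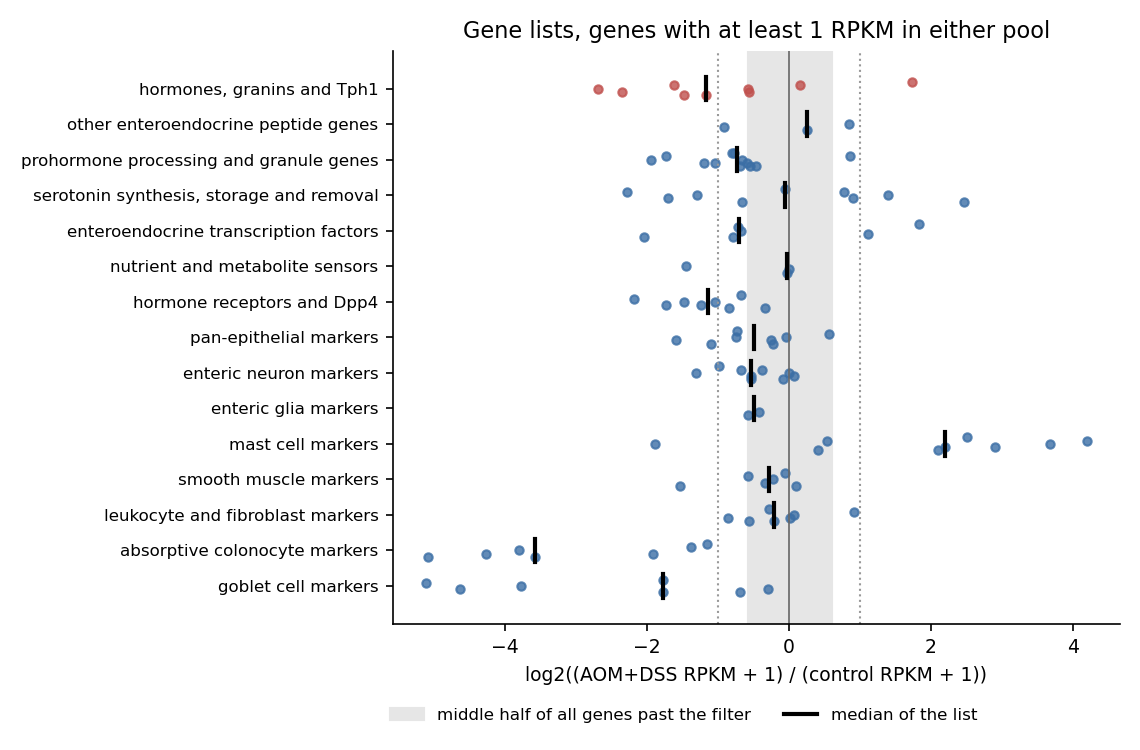
Difference between the AOM+DSS and control pools on the log2(RPKM + 1) scale for genes that reached 1 RPKM in a pool, by list, with black bars at list medians, a grey band over the middle 50% of all genes and dotted lines at 2-fold. The hormone, granin and Tph1 genes have a median of -1.17, under the epithelial median of -0.49 and above the goblet median of -1.78, and the mast cell median lies furthest to the right.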

How the data were processed

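RNA was extracted with Trizol, per the labels, and each library was made from RNA pooled over 6 individuals. The authors deposited 1 table of RPKM values with 1 column per library. The build named in the submitters' processing notes is GRCh 37, a human assembly, although the symbols are those of mouse; no source used here gives the aligner, counting method or annotation, and the labels name both Proton and Illumina sequencing. Members and lists were chosen with earlier results of these data known, and the rule for named genes allowed all 10 members, any gene of the enteroendocrine lists, and of each marker list the most abundant gene and up to 5 others by size of difference. The mast cell markers Kit and Tpsab1 were named outside this rule.

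Reads behind the RPKM were recovered from microRNA and small nucleolar RNA genes of RefSeq length, the most frequent product of RPKM and length being taken as 1 read. Approximate reads per gene used the longest GENCODE M21 transcript, found for 15509 of 16517 genes past the filter (93.9%), and the intervals are exact (Clopper-Pearson). They are too narrow where the authors' length was shorter. A pseudocount of 1, a filter of 1 RPKM in either library and a threshold of 2-fold were used. Length adjustment subtracted the running median of mRNA genes over 20 bins of length and added back their overall median. The epithelial scale divides by the geometric mean of 8 marker ratios. Older symbols were matched through RefSeq synonyms for 2 list genes. Steps were tested on simulated data. Python 3.11.15, pandas 2.3.3, NumPy 2.4.6, SciPy 1.17.1 and matplotlib 3.10.9 were used.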

Additional observations from a re-analysis of the deposited data

How the results depend on the processing

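No paired analysis was possible because each group holds 1 library, and no replicate could be left out. Under 13 alternatives the count of genes at least 2-fold lower stayed between 4 and 7, except at a threshold of 4-fold, where it was 2 (Chga and Chgb) against 1.08% of all genes. It was 4 with a pseudocount of 5 (3.96% of all genes), which lost Tph1, 4 on the epithelial scale (4.64%), which lost Gcg, 7 after length adjustment (11.3%), which added Pyy and Insl5, 5 at 1.5-fold (24.6%) and 5 with a filter of 5 RPKM (13.2%). Tph1, 5.06-fold lower by RPKM, missed the 4-fold threshold at -1.63 with a pseudocount of 1 and was at -2.24 with 0.1. The count at least 2-fold higher, made up of Nts, was 0 with a pseudocount of 5, 0 with a filter of 5 RPKM, which Nts does not reach, and 0 at 4-fold. The median was -1.20 with a pseudocount of 0.1, -0.77 with 5, -0.87 without a filter, which adds Cck, -1.33 with a filter of 5 RPKM, -1.54 at equal sums, -1.15 by the median ratio, -1.11 by the upper quartile, -1.15 by a trimmed mean, -0.67 on the epithelial scale and -1.55 after length adjustment. With mRNA genes alone the background was 13.1% lower and 10.4% higher. Over the alternatives Chgb ranged from -3.04 to -2.21 and Chga from -2.69 to -1.88. Depth limits the genes under 1 RPKM in a library, among them Cck, Nts in control tissue and 11 transcription factors.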

Other observations

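Most receptors for these hormones were low in both libraries, and several had lower values in adenoma tissue. Of 23 receptor and peptidase genes, 17 had lower and 4 higher RPKM in AOM+DSS, against 51.2% lower among all genes above 0 in either library. Of the 8 past the filter, 5 were at least 2-fold lower and 0 higher, against 11.0% and 14.0% of all genes. However, 3 of the 5, Sstr1, Htr4 and Npy1r, reached 1 RPKM only in control tissue. There were 3 lower after length adjustment (11.3% of all genes) and 2 lower on the epithelial scale (4.64%). Without a filter the median was -0.09. The exception in level was Sort1, a sorting receptor that also binds neurotensin, with 19.1 RPKM in AOM+DSS and 54.9 RPKM in control tissue, 2.87-fold lower (2.77 to 2.97). Sstr1, a somatostatin receptor, had 0.584 RPKM in AOM+DSS and 6.22 RPKM in control tissue, 10.6-fold lower (7.65 to 15.2). Htr4, a serotonin receptor, had 0.473 RPKM in AOM+DSS and 3.91 RPKM in control tissue, 8.27-fold lower (6.47 to 10.7). Npy1r, a receptor for peptide YY, had 0.797 RPKM in AOM+DSS and 3.23 RPKM in control tissue. Npy2r, another receptor for peptide YY, went the other way at low levels, with 0.359 RPKM in AOM+DSS and 0.121 RPKM in control tissue, 2.97-fold higher (1.53 to 6.22). Dpp4, the peptidase that inactivates glucagon-like peptides, had 2.95 RPKM in AOM+DSS and 7.18 RPKM in control tissue. The G protein-coupled neurotensin receptor Ntsr1 had 0.0231 RPKM in AOM+DSS and 0.0519 RPKM in control tissue, while Nts itself was higher. Glp1r and Cckbr were listed at 0 in both libraries.

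Sensors through which these cells read the gut contents gave a mixed picture. Ffar2, a short-chain fatty acid receptor, had 2.48 RPKM in AOM+DSS and 2.54 RPKM in control tissue, and the long-chain fatty acid receptor Ffar4, listed under its older symbol O3far1, had 7.53 RPKM in AOM+DSS and 7.56 RPKM in control tissue. The intervals of their fold differences, 0.831 to 1.27 and 0.859 to 1.17, hold 1, and both receptors are also made by other cells. Slc5a1, the sodium-glucose transporter, had 12.4 RPKM in AOM+DSS and 35.7 RPKM in control tissue, 2.87-fold lower (2.71 to 3.03). Of the 13 sensors under 1 RPKM in both libraries, 12 had lower RPKM in AOM+DSS, against 51.8% of all such genes. This count depends on the scale. After length adjustment some changed sign, among them Abcc8 (from -0.25 to 0.08) and Olfr78 (from -0.23 to 0.08), while others such as Tas1r3 stayed lower (from -0.57 to -0.45). Reads were also few, and the intervals of fold difference held 1 for Trpa1 (0.618 to 1.79) and Gpr119 (0.769 to 5.41).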
